A study of Mus musculus with 6 samples.

Results

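The Slc25 family comprises the mitochondrial carriers, and its expression was compared here between Ythdf1 knockout and wild-type mouse fat cells grown in culture. Members were all protein-coding genes of the deposited count table whose symbol is Slc25a followed by a number, which gave 47 genes among the 53801 rows of the table. The cells came from the stromal vascular fraction (the part of fat tissue left once its fat cells are removed, with the progenitors among it) of inguinal white adipose tissue of wild-type or Ythdf1 knockout mice. Both genotypes received the same adipogenic induction in culture, and RNA was taken on day 4. There were 3 libraries per genotype, given as biological replicates; the labels do not name the allele, a background strain or the age of the animals. The product of Ythdf1 is a reader of m6A, a methyl mark on RNA, in the cytoplasm.

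Mitochondrial carriers are small proteins of the inner mitochondrial membrane, most of them exchangers that move one solute in while another leaves. They pass ADP, ATP, phosphate, di- and tricarboxylates, amino acids, carnitine esters, cofactors and iron across a membrane that is otherwise closed to such solutes. In fat cells the citrate carrier and its partners bring acetyl units to the cytosol for fatty acid synthesis, and the carnitine carrier brings acyl groups in for oxidation. The symbols number the genes and do not order them by substrate, so the members were grouped here by the solute each is known to carry.

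Levels are CPM, counts scaled to a common library total, and differences are log2 fold changes of knockout over wild type with their standard errors. Adjusted p-values came from the quasi-likelihood F test of edgeR, adjusted by Benjamini-Hochberg over all genes tested, and a gene was called higher or lower below 0.05. Total counts lay between 16619605 and 20089138, so that 3 counts corresponded to 0.146 to 0.185 CPM on the scaled totals. The targeted gene Ythdf1 was at 45.1, 42.8 and 43.5 CPM in knockout replicates 1 to 3 and at 63.0, 62.1 and 60.4 CPM in wild-type replicates 1 to 3. Counts of Ythdf1 thus remained in the knockout, at 0.709 of the wild-type level (edgeR adjusted p = 0.000378), and whether they lie in the part that the allele removes was not tested.

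Several members are close copies of one another, and the pair of ADP/ATP carriers Slc25a4 and Slc25a5 is shown because these genes had the highest levels of the family per length in wild type and differed in their change. Their coding sequences are 894 bases long each and are identical at 77.4% of positions. The first 90 coding bases of each, counted from the A of the start codon, are given with the 24 differing bases in capitals.
Slc25a4: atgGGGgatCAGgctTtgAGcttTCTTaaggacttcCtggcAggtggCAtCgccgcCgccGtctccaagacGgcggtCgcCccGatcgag
Slc25a5: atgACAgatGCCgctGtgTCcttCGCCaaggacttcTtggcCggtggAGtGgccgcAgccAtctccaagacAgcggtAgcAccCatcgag
The longest run of bases found in transcripts of both genes was 20 bases, against reads of 150 bp. Over the 10 gene pairs compared further on, the longest shared run was between 12 and 25 bases. The table also held 14 processed pseudogene copies of 7 members, 8 of them of Slc25a5. Counts of the Slc25a5 copies came to 0.300% of the counts of Slc25a5 in knockout and to 0.303% in wild type.

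Upstream sequence is shown for 3 members that bear on the results, the member with the largest rise (Slc25a34) and the pyrimidine nucleotide carriers Slc25a33 and Slc25a36, of which the first rose and the second did not. Each is the 250 bases before the annotated start, in the gene's own direction, from RefSeq on GRCm38.p6. In GENCODE, Slc25a33 reaches to position 149774277 and Slc25a36 to 97111157. Both windows thus lie partly within those gene models, with the CACGTG of Slc25a33 in that part. Capitals mark 3 motifs on either strand, AGGTCA (the core site of nuclear receptors), CACGTG (an E-box) and CCAAT.
Slc25a34, chr4:141623835-141624084, minus strand: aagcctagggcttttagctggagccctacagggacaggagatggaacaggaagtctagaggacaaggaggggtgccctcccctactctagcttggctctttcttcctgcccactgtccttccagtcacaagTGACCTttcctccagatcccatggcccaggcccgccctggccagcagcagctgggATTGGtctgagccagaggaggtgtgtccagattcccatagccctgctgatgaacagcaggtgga
Slc25a33, chr4:149774268-149774517, minus strand: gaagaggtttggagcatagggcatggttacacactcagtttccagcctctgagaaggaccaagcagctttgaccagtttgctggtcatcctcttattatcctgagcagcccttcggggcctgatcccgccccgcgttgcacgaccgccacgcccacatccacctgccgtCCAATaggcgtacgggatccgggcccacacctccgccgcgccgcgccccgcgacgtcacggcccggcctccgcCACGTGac
Slc25a36, chr9:97111042-97111291, minus strand: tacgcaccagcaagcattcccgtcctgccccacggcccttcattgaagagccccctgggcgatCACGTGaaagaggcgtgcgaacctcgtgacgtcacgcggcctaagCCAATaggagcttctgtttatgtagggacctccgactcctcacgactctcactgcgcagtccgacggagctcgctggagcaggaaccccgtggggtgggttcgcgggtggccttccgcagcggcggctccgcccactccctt
Slc25a34 held AGGTCA and CCAAT, each on the opposite strand, while Slc25a33 and Slc25a36 both held CACGTG and CCAAT. RefSeq windows of this kind were matched to 36 of the 47 members; those not matched included Slc25a2, Slc25a26, Slc25a27, Slc25a32, Slc25a35, Slc25a37, Slc25a41, Slc25a44, Slc25a46 and Slc25a51. AGGTCA was in 4 of the 36 members (11.1%), Slc25a34, Slc25a39, Slc25a45 and Slc25a47, against 15.8% of all 27025 genes with a window. CACGTG was in 7 members (19.4%) against 6.86% of genes, and CCAAT in 18 members (50%) against 37.5%. The GC box GGGCGG was in 25 members (69.4%) against 35.4% of genes, and all 3 windows shown held it, unmarked. TGACGTCA was in 2 members (5.56%), Slc25a25 and Slc25a36, against 1.77% of genes, so Slc25a36 held it and Slc25a33 did not. TCACNCCAC was in 1 member (2.78%), Slc25a18, against 1.22% of genes. Neither TCAAGGTCA nor the direct repeat AGGTCANAGGTCA, both of which contain the core site, was in any of these windows of members; they were in 0.422% and 0.0407% of all genes. These are matches of letters, and binding was not measured.

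Of the 47 members, 40 had enough counts to be tested. In the knockout 22 were higher and 6 were lower, and 12 were not called. Among all 14816 genes tested, 22.6% were higher and 21.7% were lower, and 44.3% were called in either direction, so that 55% of tested members stood against 22.6% on the higher side and 15% against 21.7% on the lower side. The median difference was a log2 fold change of 0.54 over tested members and 0.01 over all genes tested. All 3 knockout libraries lay above all 3 wild-type libraries for 22 tested members, the same 22 that were called higher, where 27.9% of all tested genes were so separated. A rise of at least 2-fold was called for 14 members (35%), against 8.95% of all genes tested.

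The members that rose in the knockout included Slc25a1, Slc25a3, Slc25a5, Slc25a10, Slc25a11, Slc25a16, Slc25a20, Slc25a22, Slc25a23, Slc25a25, Slc25a26, Slc25a28, Slc25a32, Slc25a33, Slc25a34, Slc25a35, Slc25a39, Slc25a42, Slc25a44, Slc25a46 and Slc25a51. The 6 that fell were Slc25a12, Slc25a13, Slc25a24, Slc25a30, Slc25a37 and Slc25a40. All 22 rises, and the falls of Slc25a12, Slc25a13, Slc25a24 and Slc25a37, were also called with each of the 6 libraries left out in turn.

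**Figure D1:**
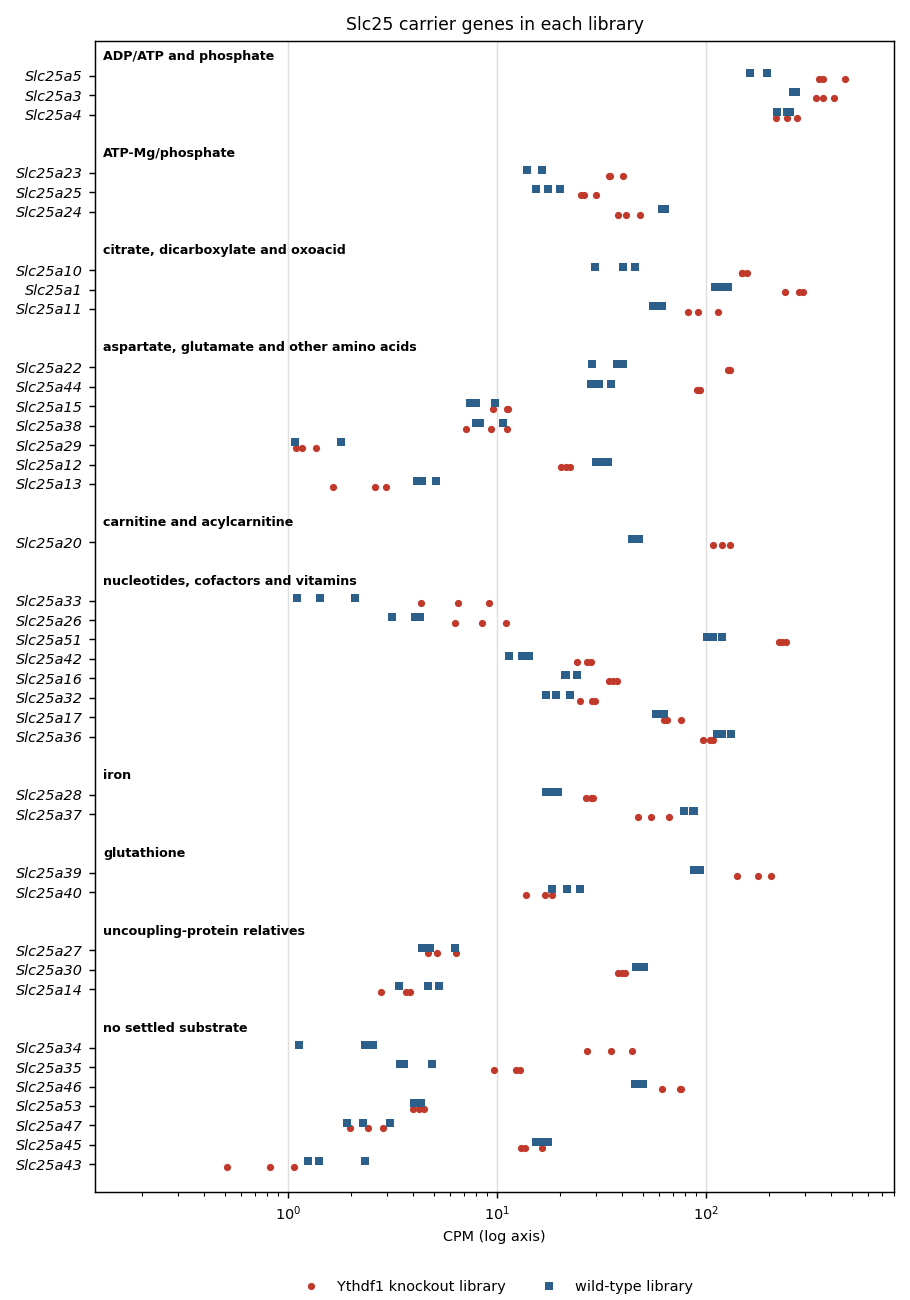
Level of 39 tested Slc25 genes in every library, in CPM on a log axis, ordered by substrate; circles are knockout libraries and squares are wild-type libraries (3 each). Circles lie to the right of all squares in 21 rows, with the widest gap in the row of Slc25a34.

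Levels of the members, summed per library, were 3019, 3309.9 and 2819 CPM in the knockout and 1852, 1908 and 1865 CPM in wild type. The knockout mean of 3049 ± 247 CPM (SD, n = 3) was 1.63 times the wild-type mean of 1875 ± 28.9 CPM (SD, n = 3). The genotypes did not overlap, and the exact permutation test over the 6 libraries gave its smallest possible 2-sided p of 0.1. Within the knockout, replicate 2 had the highest level of the 3 for 18 of the 22 members that rose and replicate 3 the lowest for 17. In wild type, replicate 1 was the lowest for 16 of these 22 and replicate 3 the highest for 12. Knockout replicate 2 and wild-type replicate 3 carry the suffix L0 in their library names. The same counts over all genes tested are not given, and whether whole libraries shifted in this way was not tested.

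Fat cell markers moved with the carriers. All 12 markers of mature adipocytes were higher in the knockout; summed, they were at 19785, 24008 and 18021 CPM in knockout replicates 1 to 3 and at 3987, 5780.4 and 6205 CPM in wild-type replicates 1 to 3, so that replicate 2 was also the highest knockout library and replicate 1 the lowest wild-type library here. Of 10 progenitor and fibroblast markers 7 were lower and none was higher, and all 7 myofibroblast markers were lower, with summed levels of 6862 to 7754 CPM in the knockout and 24529 to 26610.5 CPM in wild type. Of 8 brown and beige adipocyte markers 6 were higher and none was lower; summed, they were at 198, 245 and 157 CPM in the knockout and 28.4, 45.3 and 36.3 CPM in wild type. Those not called were Dio2 (0.576 ± 0.192 CPM in the knockout, 1.15 ± 0.216 CPM in wild type, SD, n = 3) and Prdm16 (11.3 ± 0.880 against 9.41 ± 1.40 CPM). Elovl3 alone gave 129, 154 and 104 CPM of the brown and beige sum in the knockout and 12.0, 23.2 and 15.4 CPM in wild type. Ucp1 had 1 to 5 counts per wild-type library and Cidea 0 to 4. In bulk RNA, a larger share of cells of a type and more RNA per cell cannot be told apart. The part of these shifts in the carrier levels was not tested.

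Markers of other cells summed to less than those of mature adipocytes, progenitors and fibroblasts, or myofibroblasts. Among them, macrophage markers exceeded the brown and beige markers in every library. Macrophage markers summed to 300.1, 301 and 815 CPM in the knockout and to 93.2 to 169 CPM in wild type; 10 of 12 were higher, and knockout replicate 3 stood apart. Without that library the same 22 carriers were called higher. Macrophage markers of knockout replicates 1 and 2 also lay above wild type, so leaving out replicate 3 does not remove that difference. Its part in the carrier levels was not tested. The 10 tested gut epithelium markers had a median log2 fold change of -3.64, and 8 were lower. Agr2 and Cdx2 had 0 counts in all 3 knockout libraries. Summed, the gut markers changed less, at 61.5 to 78.2 CPM in the knockout and 90.4 to 105 CPM in wild type. Endothelial (24.9 to 35.8 CPM in knockout, 23.0 to 29.2 CPM in wild type), liver (40.8 to 63.9 and 37.5 to 49.1 CPM) and skeletal muscle markers (8.92 to 9.46 and 18.4 to 29.2 CPM) were lower still. In these 3 lists 1 of 7 endothelial markers was higher (14.3%) and 1 of 4 tested muscle markers was lower (25%). Of 6 liver markers 1 was higher (16.7%) and 4 were lower (66.7%). All but the last share were near the 22.6% higher and 21.7% lower among all genes tested.

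Per length of exon, the order of the members changed at its top. In wild type, Slc25a5 (106 ± 12.2 CPM per kilobase, SD, n = 3) and Slc25a4 (101 ± 7.50) led and did not differ beyond their spread, followed by Slc25a1 (55.4 ± 3.74), Slc25a3 (47.7 ± 0.720), Slc25a39 (32.8 ± 1.33) and Slc25a11 (27.5 ± 1.60). In the knockout Slc25a5 (239 ± 37.0 CPM per kilobase) stood clear of Slc25a1 (125 ± 12.6) and Slc25a4 (104 ± 11.9), and these were followed by Slc25a3 (66.9 ± 6.91) and Slc25a39 (63.6 ± 11.6), which did not differ beyond their spread. Slc25a10 rose from place 12 to place 7 and Slc25a34 from place 38 to place 13 of the order. As a share of the family total per length, Slc25a5 was 24.5% in the knockout and 18.8% in wild type, and Slc25a4 was 10.7% and 18.0%.

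**Figure D2:**
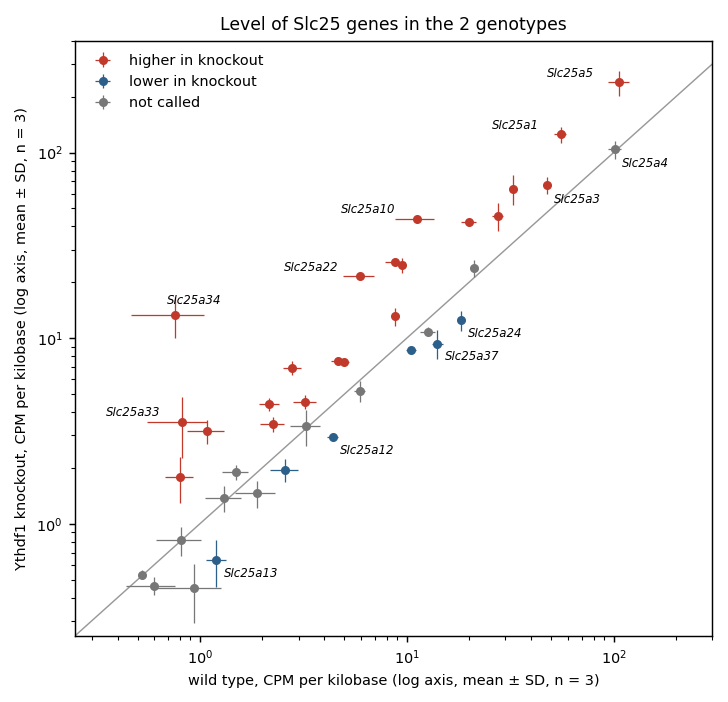
Mean level of 39 tested Slc25 genes in CPM per kilobase of exon, wild type on the horizontal and knockout on the vertical axis, both log axes, with SD over 3 libraries; the line marks equal levels. Slc25a5 (106 to 239) lies above the line and Slc25a4 (101 to 104) lies on it.

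The carriers that serve ATP synthesis are the ADP/ATP exchangers, which send ATP out for ADP, and the phosphate carrier. Of the 3 tested members 2 rose and none fell. The ADP/ATP carrier Slc25a5 (ENSMUSG00000016319, X:36795651-36798807, plus strand, GRCm38) was at 366, 463 and 349.9 CPM in the knockout and at 162, 198 and 163 CPM in wild type. The genotypes did not overlap, and the log2 fold change was 1.17 ± 0.13 (edgeR adjusted p = 2.35e-05). Its copy Slc25a4 (ENSMUSG00000031633, 8:46206797-46211284, minus strand), the form known from heart and muscle, was at 244, 273 and 217 CPM in the knockout and at 253, 244 and 219 CPM in wild type. These ranges overlapped, and the fold of 1.03 had a 95% interval of 0.874 to 1.20. The phosphate carrier Slc25a3 was at 363, 413 and 338 CPM in the knockout and at 264, 269 and 261 CPM in wild type (log2 fold change 0.49 ± 0.10, adjusted p = 0.00186). Slc25a31, the ADP/ATP carrier known from testis, had 0 to 3 counts in every library and was not tested.

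Slc25a4 made up 31.8%, 29.2% and 30.3% of the summed CPM per kilobase of the 2 ADP/ATP carriers in the knockout and 52.1%, 46.3% and 48.4% in wild type. The share fell by 18.5 percentage points, without overlap of the genotypes. For this share and the other 9 pairs compared here, 3 libraries against 3 cannot give an exact permutation p below 0.1, which is 0.111 after adjustment over the 10 pairs; Slc25a12 with Slc25a13 gave 0.3, and each of the others gave 0.1.

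The calcium-regulated carriers that exchange ATP-Mg for phosphate differed in direction. Slc25a23 was at 40.1, 34.9 and 34.5 CPM in the knockout and at 14.02, 13.96 and 16.5 CPM in wild type, and Slc25a25 was at 26.2, 29.9 and 25.3 CPM against 15.5, 20.2 and 17.6 CPM. Both rose, by log2 fold changes of 1.30 ± 0.11 (adjusted p = 4.99e-06) and 0.61 ± 0.12 (adjusted p = 0.00191). Slc25a24, the most abundant of the 3 per length in both genotypes, fell from 64.2, 61.8 and 61.7 CPM in wild type to 41.6, 38.0 and 48.6 CPM in the knockout (log2 fold change -0.55 ± 0.10, adjusted p = 0.000925). The summed level of the group was 106 ± 3.18 CPM in the knockout and 95.2 ± 1.17 CPM in wild type (SD, n = 3). Slc25a23 took 35.8% ± 3.74 (SD, n = 3, as in all pair shares given so) of the pair Slc25a23 and Slc25a24 in the knockout and 13.3% ± 1.25 in wild type, and Slc25a24 took 78.1% ± 3.54 of its pair with Slc25a25 against 89.0% ± 1.48. The remaining copies were at the floor: Slc25a41, which lies 2057 bp from Slc25a23 on chromosome 17, had 0 counts in all 6 libraries, and Slc25a54, 6462 bp from Slc25a24 on chromosome 3, had 0 to 3.

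Carriers of di- and tricarboxylates rose in all 3 tested members. The citrate carrier Slc25a1 (ENSMUSG00000003528, 16:17925223-17928219, minus strand), which exports citrate in exchange for malate, was at 279.6, 293 and 241 CPM in the knockout and at 111, 128 and 121 CPM in wild type. The genotypes lay far apart, with a log2 fold change of 1.18 ± 0.10 (adjusted p = 4.69e-06). The dicarboxylate carrier Slc25a10 (ENSMUSG00000025792, 11:120491840-120499187, plus strand), which exchanges malate and succinate for phosphate, was at 149.6, 157 and 149.8 CPM in the knockout and at 29.5, 40.3 and 46.0 CPM in wild type. Its log2 fold change was 1.98 ± 0.14 (adjusted p = 1.87e-06), the larger of these rises. The 2-oxoglutarate/malate carrier Slc25a11, a member of the malate-aspartate shuttle, was at 91.6, 115 and 82.7 CPM against 62.2, 57.0 and 55.8 CPM (0.72 ± 0.12, adjusted p = 0.000402). The oxoadipate carrier Slc25a21 had 1 to 5 counts per library and was not tested.

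Enzymes that make citrate and use it in the cytosol moved with the citrate carrier: all 7 listed were higher. ATP citrate lyase Acly was at 1448 ± 143 CPM in the knockout and 332 ± 51.6 CPM in wild type, with a log2 fold change of 2.12, Acss2, which makes acetyl-CoA from acetate, rose by 2.48 on that scale, and citrate synthase Cs by 1.68. All 4 enzymes of the malate-aspartate shuttle were also higher, with Mdh2 at 1.38, Mdh1 at 1.44 and Got2 at 0.82 on the log2 scale. The glycerol phosphate shuttle, the other route for cytosolic NADH, was higher in 3 of 3 genes, Gpd1 by 2.73, Gpd2 by 1.66 and Gpd1l by 0.47.

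The carriers of aspartate and glutamate went the other way from most of the family. Slc25a12, which exports aspartate for glutamate and completes the malate-aspartate shuttle, was at 22.4, 21.5 and 20.4 CPM in the knockout and at 34.2, 30.0 and 32.5 CPM in wild type (log2 fold change -0.59 ± 0.10, adjusted p = 0.000543). Its copy Slc25a13, known from liver, was at 2.97, 1.65 and 2.63 CPM against 5.15, 4.39 and 4.17 CPM (-0.91 ± 0.26, adjusted p = 0.0129). The knockout libraries lay below all wild-type libraries for both, and the share of Slc25a12 in the pair was 82.2% ± 4.20 in the knockout and 78.5% ± 1.43 in wild type, with overlap. The malate-aspartate shuttle thus contained lower aspartate carriers beside a higher Slc25a11 and higher enzymes.

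Among the other amino acid carriers, those of glutamate and of branched-chain amino acids rose. Slc25a22, which brings glutamate in with a proton, was at 127, 131 and 129 CPM in the knockout and at 28.7, 37.8 and 40.2 CPM in wild type, with a log2 fold change of 1.86 ± 0.12 (adjusted p = 8.46e-07). Slc25a44, the branched-chain amino acid carrier described in brown fat, was at 91.3, 93.5 and 92.7 CPM against 28.3, 30.9 and 35.1 CPM (1.56 ± 0.09, adjusted p = 7.02e-07). In both genes the knockout libraries differed by only a few CPM among themselves. Slc25a18, the second glutamate carrier, had 4 to 10 counts in the knockout and 0 to 3 in wild type and was not tested.

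The ornithine carrier Slc25a15 was at 9.57, 11.4 and 11.3 CPM in the knockout and at 9.78, 7.48 and 7.94 CPM in wild type, with an adjusted p of 0.0871 that became 0.0478 without wild-type replicate 1. The basic amino acid carrier Slc25a29 was at 1.10, 1.36 and 1.17 CPM against 1.81, 1.79 and 1.09 CPM (fold 0.776, 95% interval 0.465 to 1.30). Slc25a15 took 80.4% ± 1.16 of this pair in the knockout and 71.5% ± 5.66 in wild type. The glycine carrier Slc25a38 was at 7.16 to 11.3 CPM in the knockout and 7.97 to 10.7 CPM in wild type, with a fold of 1.03 (95% interval 0.769 to 1.37). Slc25a2, a second ornithine carrier, had 0 or 1 count per library. Over the 7 tested amino acid carriers 2 were higher and 2 were lower (28.6% each), near the 22.6% and 21.7% of all genes tested.

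The enzymes that handle these amino acids were divided. Of 9 tested genes of glutamate and proline metabolism 3 were higher (33.3%) and 4 were lower (44.4%), against 22.6% and 21.7% of all genes tested, the last led by the proline-making Pycr1 (8.88 ± 0.992 CPM in the knockout, 29.9 ± 6.02 CPM in wild type, log2 fold change -1.76), and including Aldh18a1 at -0.63. For branched-chain amino acids the mitochondrial subunits were higher, Bckdhb by 2.79 and Bckdha by 1.46, as were Dbt and Bcat2, while the cytosolic transaminase Bcat1 was lower at -1.09. In mitochondrial one-carbon metabolism, which takes in glycine and serine, 3 of 9 genes were higher (33.3%, near the 22.6% of all genes tested), Gldc by 1.60, Gcsh by 0.42 and Dld, a subunit also of other dehydrogenase complexes, by 1.41; 1 was lower, Mthfd1l at -0.22, whose adjusted p of 0.0494 passed the threshold under 6 of 17 alternatives.

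The single carrier of carnitine esters, Slc25a20 (ENSMUSG00000032602, 9:108662088-108684641, plus strand), exchanges acylcarnitine for carnitine on the way to fatty acid oxidation. It was at 120.1, 131 and 108 CPM in the knockout and at 44.2, 46.2 and 48.1 CPM in wild type, and the genotypes did not overlap (log2 fold change 1.38 ± 0.09, adjusted p = 1.21e-06). Of the 6 genes of the carnitine shuttle beside it, 4 were higher (66.7%) and 2 were lower (33.3%), against 22.6% and 21.7% of all genes tested. Those higher included the carnitine acetyltransferase Crat (2.38 on the log2 scale), Cpt2 (1.77) and the plasma membrane carnitine transporter Slc22a5 (1.15). The outer membrane enzymes Cpt1c (-0.45) and Cpt1a (-0.36, adjusted p = 0.0331) were lower; the call of Cpt1a was lost without knockout replicate 1 or 2 or wild-type replicate 1 or 2.

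Carriers of nucleotides, cofactors and vitamins were higher in 7 of 9 tested members and lower in none. The NAD carrier Slc25a51 (ENSMUSG00000045973, 4:45395923-45408766, minus strand) was the most abundant riser of the group per length, at 225, 242 and 232 CPM in the knockout and at 102, 108 and 119.7 CPM in wild type (1.08 ± 0.09, adjusted p = 4e-06). Its lowest knockout library was well above the highest wild-type library.

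Both carriers of coenzyme A rose. Slc25a42 was at 28.4, 27.0 and 24.2 CPM in the knockout and at 11.5, 13.2 and 14.3 CPM in wild type (1.03 ± 0.12, adjusted p = 4.3e-05), and Slc25a16 was at 35.8, 37.5 and 34.6 CPM against 21.3, 24.3 and 21.4 CPM (0.69 ± 0.10, adjusted p = 0.000166). The share of Slc25a16 in the pair was 62.9% ± 1.52 in the knockout and 68.3% ± 2.71 in wild type. Slc25a17, which works in peroxisomes and carries coenzyme A, FAD and NAD, was at 65.4, 76.0 and 62.9 CPM against 62.9, 60.2 and 58.1 CPM and was not called (fold 1.13, 95% interval 0.980 to 1.30).

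The pyrimidine nucleotide carriers differed. Slc25a33 was at 6.54, 9.20 and 4.34 CPM in the knockout and at 2.09, 1.11 and 1.43 CPM in wild type, with a log2 fold change of 2.10 ± 0.32 (adjusted p = 0.000327). Its more abundant copy Slc25a36 was at 109, 97.6 and 105 CPM in the knockout, below the 132, 119 and 113 CPM of wild type, and was not called (-0.23 ± 0.09, adjusted p = 0.0576); without wild-type replicate 3 its adjusted p was 0.0422. Slc25a33 took 24.4% ± 7.57 of the pair in the knockout and 6.004% ± 1.46 in wild type. An antisense model, Gm13068, covers 14.9% of the exon bases of Slc25a33 and had a mean of 2.67 counts in the knockout and 0.333 in wild type.

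The S-adenosylmethionine carrier Slc25a26 was at 8.52, 11.1 and 6.29 CPM in the knockout and at 3.17, 4.08 and 4.29 CPM in wild type (1.16 ± 0.23, adjusted p = 0.0017), and the folate and FAD carrier Slc25a32 at 28.5, 29.6 and 24.95 CPM against 17.3, 19.2 and 22.3 CPM (0.50 ± 0.12, adjusted p = 0.00602). The opposite-strand gene Lrig1 shares 2.996% of the exon bases of Slc25a26 and had 732 mean counts in the knockout and 741 in wild type, against 160 and 65.7 for Slc25a26. Genes that supply these cofactors were higher in 10 of 12 and lower in none, with Pank3 at 1.09, Ppcs at 1.40 and Coasy at 1.25 for coenzyme A on the log2 scale.

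**Figure D3:**
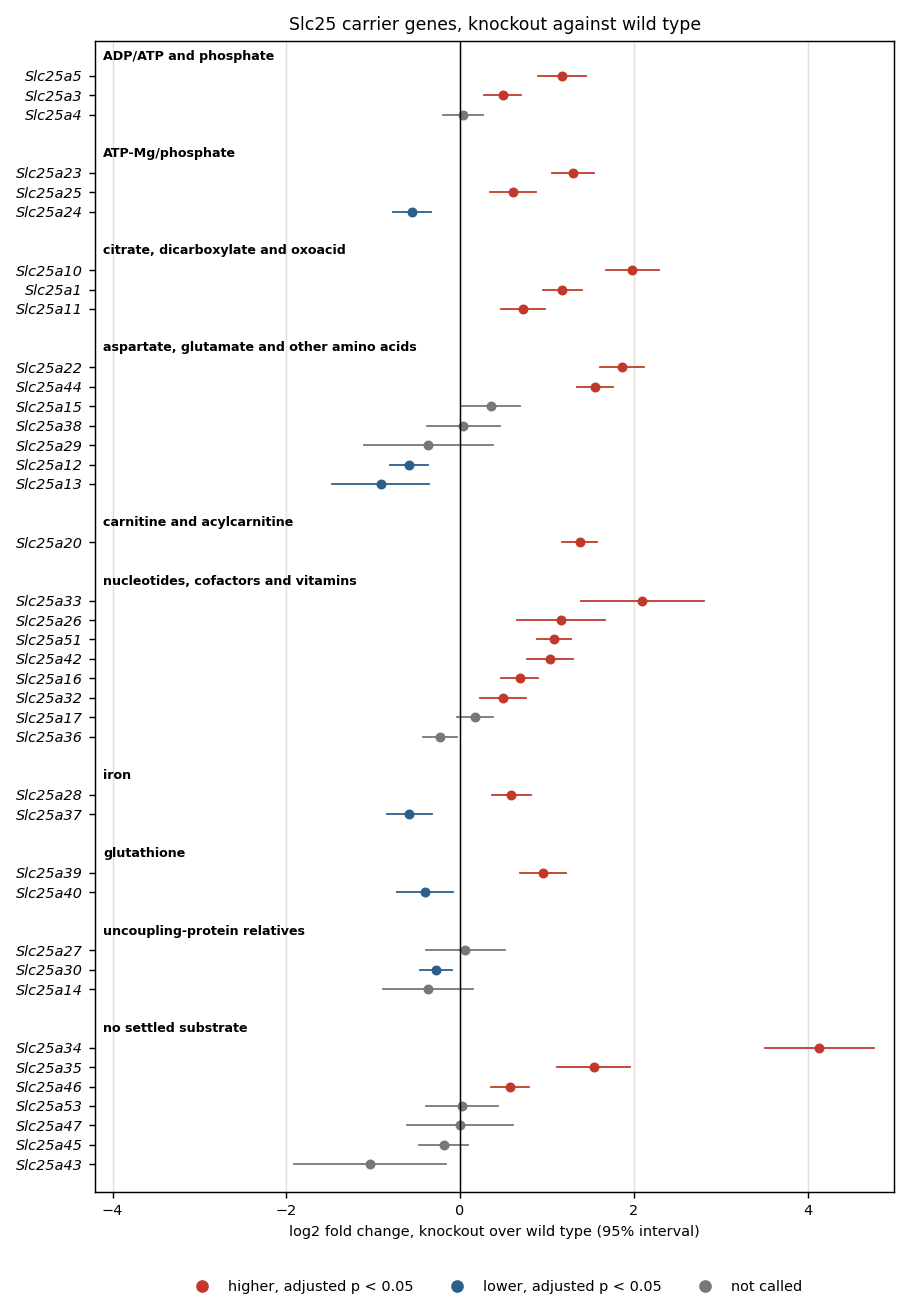
Log2 fold change of knockout over wild type for 39 tested Slc25 genes, by substrate, with 95% intervals; red marks genes called higher, blue those called lower and grey those not called. Intervals of 21 genes lie to the right of 0 in red, and all 3 carboxylate carriers are among them.

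The iron carriers, or mitoferrins, moved apart. Slc25a28, the broadly expressed form, was at 26.7, 28.2 and 28.9 CPM in the knockout and at 17.3, 19.7 and 18.7 CPM in wild type (0.59 ± 0.10, adjusted p = 0.000656). Slc25a37, the form known from red cell precursors, fell from 86.9, 78.8 and 88.2 CPM in wild type to 54.7, 47.3 and 67.0 CPM in the knockout (-0.59 ± 0.12, adjusted p = 0.00188). The share of Slc25a28 in the pair was 44.6% ± 4.02 in the knockout and 26.1% ± 2.29 in wild type, and the summed level of the pair was 84.3 ± 10.5 against 103 ± 4.33 CPM. Of 11 tested genes of mitochondrial iron use 7 were higher (63.6%) and 1 was lower (9.09%), against 22.6% and 21.7% of all genes tested. Among the 7, Iscu (edgeR adjusted p = 0.0452) lost its call under 7 of 17 alternatives. The first enzyme of heme synthesis, Alas1, rose by 1.85 on the log2 scale, and the heme enzyme Cpox was lower at -0.32.

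A like split was seen in the glutathione carriers. Slc25a39 (ENSMUSG00000018677, 11:102402985-102407946, minus strand) was at 178, 206 and 142 CPM in the knockout and at 87.5, 94.5 and 89.1 CPM in wild type (0.96 ± 0.12, adjusted p = 8.6e-05). Its minor copy Slc25a40 was at 17.1, 18.4 and 13.7 CPM against 24.9, 21.7 and 18.3 CPM (-0.40 ± 0.15, adjusted p = 0.0411), with overlap between the genotypes. That call was lost without knockout replicate 1 (adjusted p = 0.0814) or 3 (0.124) and without wild-type replicate 1 (0.167) or 2 (0.101), so it rests on those libraries. Slc25a39 took 97.0% ± 0.129 of the pair in the knockout and 92.7% ± 1.14 in wild type.

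Relatives of the uncoupling proteins within the family did not rise. Slc25a30 was at 41.0, 39.7 and 38.1 CPM in the knockout and at 46.4, 46.8 and 50.8 CPM in wild type (-0.28 ± 0.08, adjusted p = 0.0195); the call was lost without knockout replicate 3 (adjusted p = 0.0551) and without wild-type replicate 2 (0.0512) or 3 (0.0669). Slc25a14 was at 2.80, 3.86 and 3.70 CPM against 4.69, 3.40 and 5.32 CPM (adjusted p = 0.23) and Slc25a27 at 6.38, 5.17 and 4.68 CPM against 6.33, 4.39 and 4.80 CPM (adjusted p = 0.84). The uncoupling proteins themselves, which are carriers of the same fold under other symbols, were higher: Ucp2 at 108 ± 11.3 CPM in the knockout and 20.9 ± 3.29 CPM in wild type, Ucp3 at 8.16 ± 1.08 and 1.21 ± 0.547 CPM, and Ucp1 at 6.05 ± 2.86 and 0.154 ± 0.116 CPM. Ucp1 and Ucp3 were singled out once their values were known.

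Members without a substrate assigned here included the largest rise of the family. Slc25a34 (ENSMUSG00000040740, 4:141618824-141623821, minus strand) was at 35.2, 44.4 and 26.9 CPM in the knockout and at 1.13, 2.35 and 2.57 CPM in wild type. Every knockout library was more than 10 times every wild-type library, and the fold change was 17.6, 95% interval 11.4 to 27.2 (log2 fold change 4.14 ± 0.28, adjusted p = 4.12e-06). Its copy Slc25a35 was at 12.3, 13.0 and 9.70 CPM against 3.62, 3.46 and 4.92 CPM (1.54 ± 0.19, adjusted p = 6.53e-05). Slc25a34 took 80.5% ± 1.74 of this pair in the knockout and 40.1% ± 9.24 in wild type, which was the widest change of the 10 shares, at 40.4 percentage points. Rangrf on the opposite strand covers 31.3% of the exon bases of Slc25a35 and had a mean of 0.667 counts in the knockout and 1.33 in wild type.

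Slc25a46, a member of the outer membrane that acts in mitochondrial shape rather than transport, was at 76.4, 75.1 and 62.0 CPM in the knockout and at 50.05, 47.1 and 46.1 CPM in wild type (0.57 ± 0.10, adjusted p = 0.000599). Slc25a45, Slc25a47 and Slc25a53 were not called, with folds of 0.879, 1.001 and 1.02 and 95% intervals from 0.723 to 1.07, 0.655 to 1.53 and 0.762 to 1.36. Slc25a43 was at 0.825, 0.511 and 1.07 CPM in the knockout, below the 1.41, 2.35 and 1.26 CPM of wild type (-1.04 ± 0.40, adjusted p = 0.0549); without knockout replicate 3 its adjusted p was 0.0381. It ends 18449 bp before Slc25a5 on the same strand of the X chromosome, so the neighbours had log2 fold changes of -1.04 and 1.17. Slc25a48 had 0 counts in the 3 knockout libraries and 0, 4 and 2 in wild type.

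**Figure D4:**
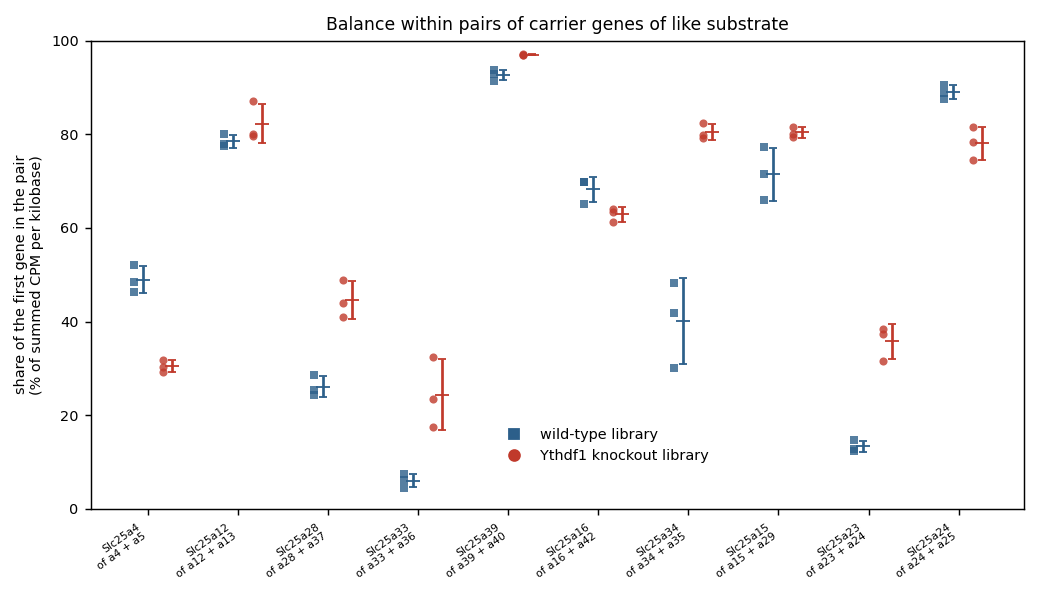
Share of the first gene in the summed CPM per kilobase of each of 10 gene pairs. Points are single libraries (squares wild type, circles knockout), with mean and SD beside them. The pairs are of like substrate except Slc25a34 with Slc25a35, which have no substrate assigned here. Slc25a34 goes from 40.1% to 80.5% of its pair and Slc25a4 from 49.0% to 30.4%; the points overlap for Slc25a12.

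Within several pairs the copies did not move together. Slc25a5, Slc25a28, Slc25a33, Slc25a39 and Slc25a23 rose while Slc25a4, Slc25a37, Slc25a36, Slc25a40 and Slc25a24 either fell or were not called. The gene that rose was the less abundant one in wild type, per length, in the pairs of Slc25a28, Slc25a33 and Slc25a23, and the more abundant one in the pair of Slc25a39.

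Enzymes, carriers, channels and import genes that work beside the family were described from lists of 102 genes. Of these, 100 were tested, 69 were higher and 13 were lower (median log2 fold change 0.60), against 22.6% and 21.7% of all genes tested. Genes of carrier proteins under other names, among them the outer membrane proteins Mtch1 and Mtch2, were higher in 8 of 12, with Ucp2 at 2.38, the pyruvate carrier subunit Mpc1 at 2.18 (65.0 ± 7.86 CPM against 14.4 ± 1.73 CPM) and the serine carrier Sfxn1 at 1.01 on the log2 scale. The 2 that were lower were Sfxn3 at -0.78 and Mtch1 at -0.45. In the outer membrane, the channels Vdac1 (0.35) and Vdac2 (0.30) were higher and Vdac3 (0.12) was not called; the call of Vdac2 was lost without knockout replicate 2 or any 1 of the wild-type libraries.

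All 10 listed genes that bring carrier proteins into the inner membrane were higher. The small chaperones of the space between the membranes had the smallest adjusted p, Timm9 with a log2 fold change of 1.06 (5.22e-05), Timm10 with 1.24 (0.000325) and Timm8a1 with 1.38 (0.000377), all from edgeR's test. The receptor Tomm70a (0.48) and the insertion pore Timm22 (0.51) rose less. The calls of Timm10b (adjusted p = 0.0478) and Agk (0.0381) were lost when single libraries were left out, the first in 5 of 6 cases and the second in 3.

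Calcium, which stimulates the ATP-Mg and aspartate carriers from outside the inner membrane, has its own transport machinery. Of 9 genes 4 were higher (44.4%, against 22.6% of all genes tested) and 2 were lower (22.2%, near the 21.7% of all genes tested). Letm1 was at 1.77, Mcur1 at 1.63 and the sodium-calcium exchanger Slc8b1 at 0.72 on the log2 scale. Mcu, the uniporter pore, was also higher at 0.29 (edgeR adjusted p = 0.0251) and lost that call under 6 of 17 alternatives. Mcub, the inhibitory copy of the uniporter pore, was lower at -0.55 and Micu2 at -0.31.

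**Figure D5:**
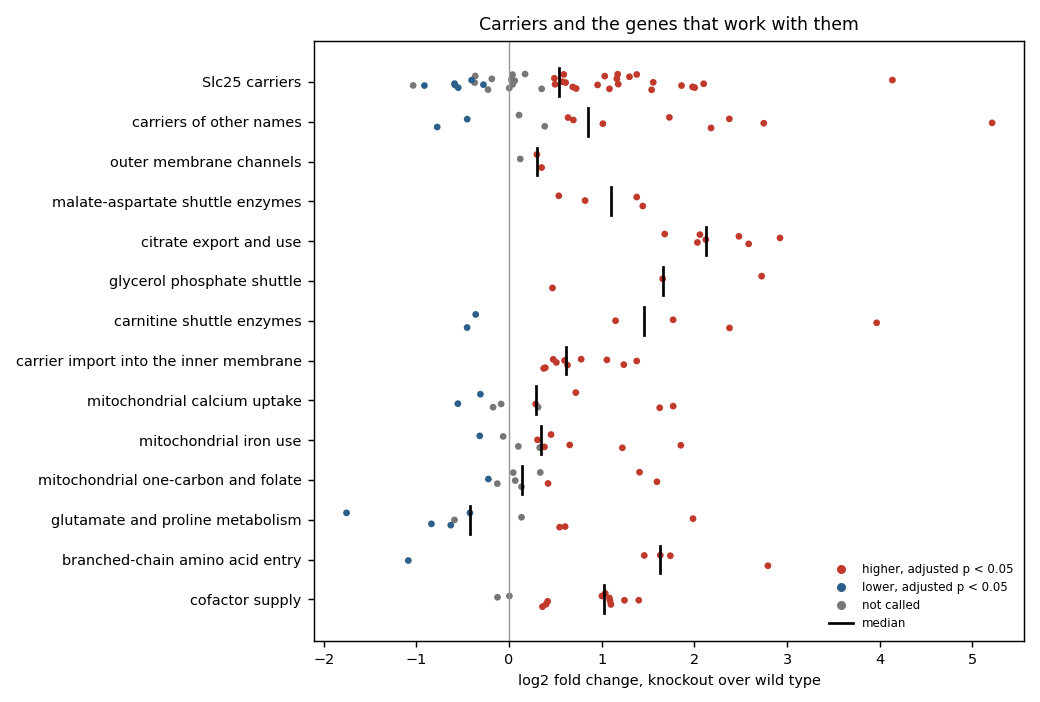
Log2 fold changes of knockout over wild type for the tested Slc25 genes (top row) and for 13 lists of genes that work with them, one point per gene, coloured by call, with the list median as a bar. The medians of the citrate (2.12) and glycerol phosphate (1.66) lists lie to the right of the carriers' own median (0.54), and that of glutamate and proline metabolism lies at -0.42.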

How the data were processed

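RNA of 6 libraries, 3 per genotype, was measured by sequencing of ribosomal-RNA-depleted total RNA in pairs of 150 bp reads, per the labels' protocols. The deposited values are read counts for each Ensembl gene, given by the authors as whole numbers without normalization. STAR and featureCounts were used with mm10 and GRCm38, per the submitters' processing notes; their versions, the strand setting and the handling of multiply mapped reads were not given in the sources used here, so counts of overlapping genes and of near-identical copies are uncertain. Each column was assigned to its sample by the column name stated in the sample's label.

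Symbols, biotypes, exon lengths and coordinates came from GENCODE mouse release M21 (GRCm38), which held 53706 of the 53801 identifiers. Rows passing filterByExpr (at least 10 counts, 15 in total) were scaled with TMM (factors 0.975 to 1.02) and tested with the robust legacy quasi-likelihood F test of edgeR 4.0.16 in R 4.3.3, 2-sided, with genotype as the single term; the fit was tested on simulated counts. CPM are relative to the TMM-scaled totals of the genes kept. Intervals and floors cover 95% and 3 counts, and floors cover counting error only. P-values refer to the spread between these libraries and not to a difference in isolation or culture that coincided with genotype. Pseudogene copies were found with BLAST+ 2.17.0 (at least 90% identity over at least 50% of the copy), and pairs of coding sequences were aligned with Biopython 1.88.

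The members and the gene lists were chosen with earlier results of these data known. By rule, values per library are given in each substrate group for the most abundant member per length, up to 4 members with the smallest adjusted p, every member that fell and both genes of each pair; each list of working partners gives up to 3 genes with the smallest adjusted p and those that fell, or the most negative one where more than 3 fell. Timm22, Tomm70a, Timm10b, Agk, Dbt, Bcat2, Vdac3, Mtch2, Dio2, Prdm16, Agr2 and Cdx2 fall outside that rule and were named with their values in view. The same holds for Iscu, Mcu, Elovl3 and Cidea. Some members and partner genes are counted but not reported here by name. Alternative settings were DESeq2 1.42.0, RLE factors, upper-quartile factors, limma-voom (3.58.1), edgeR without the legacy setting, no filter, 1 CPM in 3 libraries, the replicate number as a block, the library suffix as a covariate, protein-coding genes alone, a log2 fold change of at least 1, each library left out, and, chosen after seeing the data, removal of the 50 most abundant genes.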

Additional observations from a re-analysis of the deposited data

How the results depend on the processing

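The 22 rises and the falls of Slc25a12, Slc25a13, Slc25a24 and Slc25a37 kept their call under every alternative fit run at the same threshold, RLE and upper-quartile factors, DESeq2, limma-voom, edgeR without the legacy setting, both filters, the library suffix, protein-coding genes alone, removal of the 50 most abundant genes and each library left out. When a log2 fold change of at least 1 was also asked for, 14 members were higher and 0 were lower by edgeR's test (1, Slc25a43, at an unadjusted p below 0.05), against 1326 and 991 of all genes and 42 and 2 of the partner genes. Slc25a40 lost its call with the library suffix as a covariate (adjusted p = 0.0535), where Slc25a36 (0.0438) and Slc25a43 (0.0409) gained one; both also gained one with upper-quartile factors (0.025 and 0.0425), and Slc25a43 with a filter of 1 CPM in 3 libraries (0.0483). The cause was not tested. The labels do not explain the suffix. The summed level of the Slc25 family differed by 1174 CPM between genotypes, by 1215 CPM on raw totals, by 1165 CPM with RLE factors, and by 1044 to 1289 CPM with single libraries left out. Depth limits what can be said of the 7 untested members and of Slc25a43, which lies near the filter.

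With the replicate number as a block, 22 members were higher and 6 were lower, as without it, and 66 partner genes were higher and 12 lower. Same-numbered libraries of the genotypes did not deviate together (correlations -0.105, 0.00494 and -0.129). Such correlations cannot show whether the samples were paired in isolation or culture. With the replicate number as a block the exact paired test of the summed level gave p = 0.25, the smallest that 3 pairs allow.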
